A study of Sus scrofa with 37 samples.

Results

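Alpha cells, the islet cells that secrete glucagon, were compared between the neonatal and the early fetal pancreas of the pig (Sus scrofa). The comparison used 7 of the 37 libraries of the series, chosen by their labels alone. These were all alpha cell libraries of postnatal day 8 (P8, 2 libraries) and postnatal day 22 (P22, 2 libraries), joined as neonatal with equal weight, and all alpha cell libraries of embryonic day 40 (E40, 3 libraries). Cells had been purified from pancreas by fluorescence-activated cell sorting, with a gate that is not given in the sources used here, and the labels name no strain, sex or treatment. The other alpha libraries (E70, 5, and E90, 2) are given as group means where the course between the ends matters, and beta cells, the insulin-secreting cells, of E40 (6) and of P8 and P22 (5) served for the test of a difference between the cell types. The labels do not say whether libraries of a group came from separate animals, so p-values measure the spread between libraries only, which may be technical. In the main fit this spread was pooled over all 12 groups of cell type and age, not taken from the 7 libraries alone. Values are TPM, a gene's share of the transcripts of a library after correction for length, scaled to the same total in every library. They keep no sequencing depth, so the sampling error of a single value is unknown, and fewer transcripts per cell cannot be told apart from fewer cells that carry them.

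Glucagon raises blood glucose between meals by acting on the liver. Its precursor is made from GCG, and the transcription factor PAX6 and the IRX genes are known to hold the alpha cell state. Before birth glucose arrives through the placenta and islet cells divide. After birth feeding alternates with fasting, and alpha cells must sense glucose, amino acids and hormones by themselves and release stored granules on demand.

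The defining alpha markers summed to between 178000 and 194160 TPM at E40 and between 94339 and 103700 TPM in the neonatal libraries, mostly GCG. Of these 8 genes LOXL4 alone was below 1 TPM in all 7 libraries. Reaching 1 TPM does not tell cell types apart. Each defining marker of beta, delta, acinar, duct and immune cells in the data also reached it in some library. GCG held 188442, 191224 and 174198 TPM at E40, 100611 and 97357 TPM at P8 and 89960.5 and 94744 TPM at P22. Among the defining genes of other cells, insulin (INS) held 1122, 134 and 61.2 TPM at E40, 265 and 1498 TPM at P8 and 243 and 3907 TPM at P22, so the groups overlapped (difference of log2(TPM + 1) 1.89 ± 0.79, adjusted p = 0.081). Without E40 replicate 1, P22 replicate 1 or P8 replicate 1 the adjusted p of INS was 0.0078, 0.01 and 0.037. Alpha E40 replicate 1 stood apart from the other 2 E40 libraries. Its Pearson correlation with them across genes, on the log2(TPM + 1) scale, was 0.905 and 0.908 against 0.974 between those 2, and it had 11693 genes at 1 TPM or more against 13845 and 13909. The results were therefore also computed without it. The neonatal libraries had 13904 to 15065 such genes. The composition of the libraries also differed between the groups: GCG took 17.4% to 19.1% of all TPM at E40 and 9.0% to 10.1% in the neonatal libraries, and the listed mitochondrially encoded genes 15.6% to 18.1% and 7.98% to 15.9%. In the other direction, 2 genes without a symbol, ENSSSCG00000032395.1 and ENSSSCG00000032599.1, chosen after their values were seen, gained a large share. The first held 4454, 5721 and 4709 TPM at E40 and 94652, 112382, 117417 and 125877 TPM after birth, the second 4019, 3789 and 2933 TPM and 53627, 50633, 78297 and 100833 TPM. Since all values of a library sum to the same total, the differences below are shares of that total.

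Neonatal alpha cells differed from E40 alpha cells in a broad set of genes. Differences are the neonatal mean minus the E40 mean of log2(TPM + 1), given with the standard error of the limma fit, and a gene is said to have risen or fallen where its p-value, adjusted over the 17839 genes tested, was below 0.05. By that rule 4258 genes (23.9%) changed, 2992 (16.8%) upward and 1266 (7.1%) downward. The counts of list members given below are to be read beside these shares. The gene lists were chosen with earlier results of these data known, so an excess over these shares is not independent of the data. All libraries of one group lay above all of the other for 3803 genes (21.3%) in the neonatal and 1625 genes (9.11%) in the E40 direction. The genes that rose had a median level of 6.73 TPM at E40 and 20.1 TPM in the neonatal groups, and those that fell 64.1 TPM and 27.7 TPM, against 8.69 TPM and 11.8 TPM for all genes tested. The excess of rises depended on the scaling. The median difference of all genes was 0.26, and with median-of-ratios scaling, which moved it to 0.05, 2032 genes (11.4%) rose and 2074 (11.6%) fell. Of the 2992 rises, 2030 were called in the same direction with that scaling and 1615 without alpha E40 replicate 1. Of the 1266 falls, 1266 and 903 were. With only the 7 libraries in the fit 1373 genes rose and 786 fell, and many of the list counts below were smaller.

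**Figure D1:**
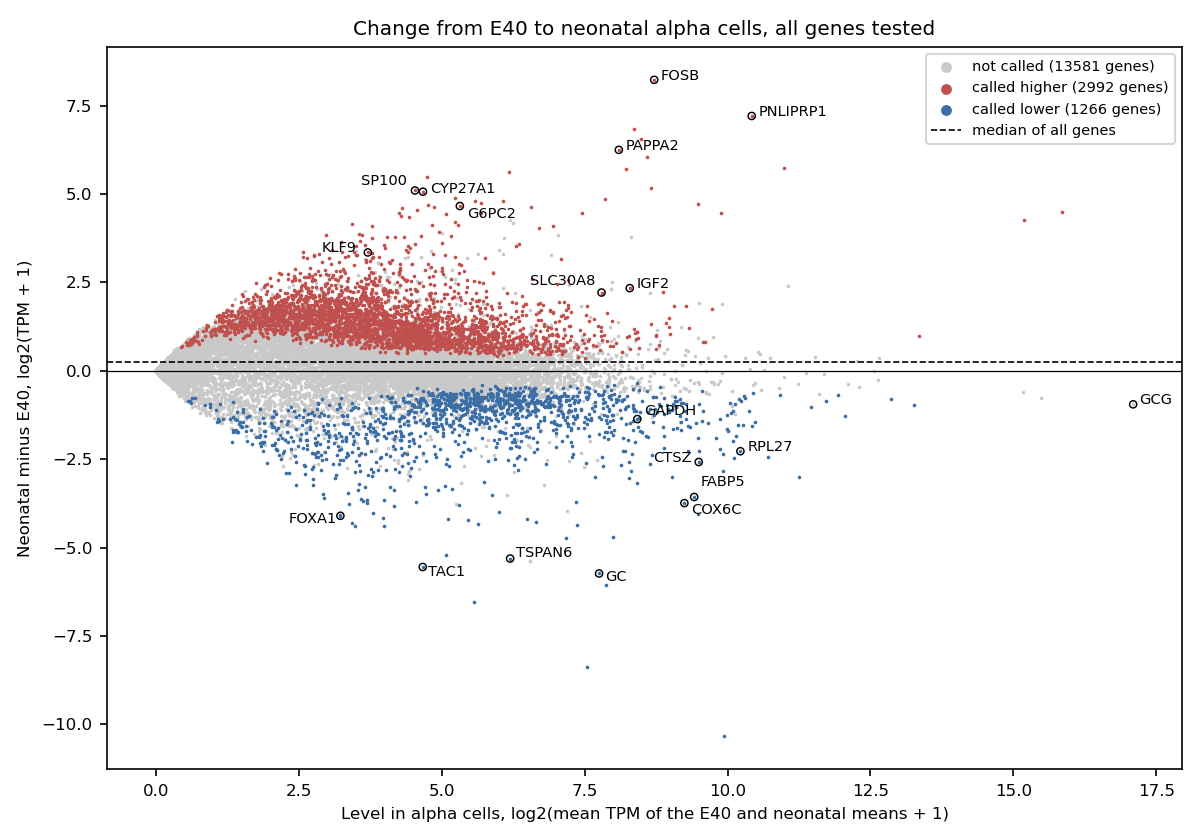
Change from E40 to neonatal alpha cells (vertical axis, difference of log2(TPM + 1)) against the level in alpha cells (horizontal axis, log2 of the mean TPM of both groups + 1) for the 17839 genes tested, each a point. Red points (2992) rose and blue points (1266) fell; the dashed line is the median of all genes, 0.26, and the circled genes are named in the text.

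The transcription factor genes that mark islet cells rose more often than they fell. Of 35 tested, 13 rose and 1 fell, against 16.8% and 7.1% of all genes, with a median difference of 0.61. Median-of-ratios scaling gave 9 rises and 3 falls, and leaving out 1 library gave 10 (without P22 replicate 1) to 15 (without P22 replicate 2) rises. MEIS2, a homeodomain factor gene, held 2.16, 17.2 and 10.4 TPM at E40, 62.3 and 75.3 TPM at P8 and 85.3 and 52.3 TPM at P22, and each neonatal library lay above each E40 library (2.98 ± 0.47, adjusted p = 4.0e-05). The zinc finger genes ST18 (1.97 ± 0.25, adjusted p = 2.4e-06), MYT1 (0.92 ± 0.25, adjusted p = 0.0086) and MYT1L (1.33 ± 0.34, adjusted p = 0.0048) form 1 family, and all of its 3 members rose. INSM1, needed for endocrine differentiation, rose from between 189 and 284 TPM to between 472 and 698 TPM (1.34 ± 0.31, adjusted p = 0.0021). PAX6, required for glucagon cells to form, rose from between 266 and 302 TPM to between 499 and 649.6 TPM (1.0 ± 0.22, adjusted p = 0.0014).

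FOXA1, a pioneer factor of endoderm, was the one factor of the list to fall. It held 17.7, 16.9 and 15.4 TPM at E40 and 0.119, 0, 0 and 0 TPM in the neonatal libraries (-4.10 ± 0.40, adjusted p = 3.9e-08), and it was already at 0.471 ± 0.511 TPM (SD, n = 5) at E70. Its paralog went the other way. FOXA2 rose from between 46.9 and 60.1 TPM to between 97.5 and 118 TPM (0.95 ± 0.24, adjusted p = 0.0042; adjusted p = 0.055 with median-of-ratios scaling). NKX6-1, known above all as a beta cell factor, rose from 15, 5.61 and 3.62 TPM to 56.8 and 61.4 TPM at P8 and 35.9 and 26.3 TPM at P22 (2.47 ± 0.34, adjusted p = 6.1e-06). The neonatal library with the most INS transcript (P22 replicate 2, 3907 TPM) had the lowest NKX6-1 of the 4, and that with the next most (P8 replicate 2) the highest. Neonatal beta cells held 159 ± 46.6 TPM (SD, n = 5) of NKX6-1, and the part of admixed beta cells in its rise was not tested. The beta cell factor MAFA stayed at or below 4.41 TPM in all 7 alpha libraries, against 45.3 ± 14.5 TPM (SD, n = 5) in neonatal beta cells.

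Genes that define the alpha cell did not move as a block. Of 22 alpha cell markers 4 rose and 2 fell, against 16.8% and 7.1% of all genes. There were 2 rises without E40 replicate 1, and 3 rises and 5 falls with median-of-ratios scaling. A fit of the 7 libraries alone gave more rises, 7, and 2 falls, where 1373 of all 17839 genes rose and 786 fell. The median difference (0.16) was close to that of all genes. GCG itself was lower in each neonatal library than in each E40 library, but the difference of -0.95 ± 1.08 missed the threshold (adjusted p = 0.59). Its share of TPM was 17.4% to 19.1% at E40 and 9.0% to 10.1% in the neonatal libraries. The error was estimated over all 12 groups with a mean-variance trend. These include beta E40 libraries, where GCG ran from 0.0022% to 0.23%. A fit of the 7 libraries alone, with such a trend, gave an adjusted p of 0.97. Neither p-value shows that GCG was unchanged. IRX2 held 88.5, 73.2 and 71.9 TPM at E40, 154 and 182 TPM at P8 and 147 and 130.5 TPM at P22 (0.96 ± 0.49, adjusted p = 0.16). IRX1 lay the other way, at 438, 236 and 246 TPM and then 195, 157, 74.8 and 109 TPM (-1.22 ± 0.58, adjusted p = 0.13). Neither gene overlapped between the groups, and neither passed the test. In a fit of the 7 libraries alone the adjusted p was 0.016 for IRX2 and 0.055 for IRX1, and in a fit of all alpha libraries 5.6e-04 and 0.011. OXTR, the oxytocin receptor gene, rose from between 30.1 and 45.5 TPM to between 112 and 175 TPM (1.90 ± 0.42, adjusted p = 0.0016).

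The largest fall among alpha cell markers was that of GC, the gene of the vitamin D binding protein. It held 480.3, 328 and 459 TPM at E40 and 5.86, 5.87, 8.35 and 7.62 TPM in the neonatal libraries (-5.73 ± 0.67, adjusted p = 6.3e-07), and the group means between were 111 TPM at E70 and 20.6 TPM at E90. It fell in every one of the 18 alternative fits. DPYSL2, a regulator of the cytoskeleton in neurites, fell from between 143 and 208 TPM to between 68 and 93.2 TPM (-1.0 ± 0.19, adjusted p = 2.6e-04). Of 7 islet hormone genes 1 rose and 0 fell. The rise was that of ghrelin (GHRL), which was listed at 0 in all 3 E40 libraries and held 3.63 and 0.165 TPM at P8 and 0.157 and 0.388 TPM at P22 (adjusted p = 0.047). Without P8 replicate 1 its adjusted p was 0.44, and in a fit of the 7 libraries alone 0.34. Leaving out any 1 library other than P8 replicate 2 ended the call. Pancreatic polypeptide (PPY) held 357, 342 and 137 TPM at E40, 2438 and 1081 TPM at P8 and 593 and 554 TPM at P22 (1.91 ± 1.59, adjusted p = 0.43), peptide YY (PYY) 54.4, 62 and 26.4 TPM at E40, 24.9 and 54.1 TPM at P8 and 17 and 3.87 TPM at P22 (-1.28 ± 0.71, adjusted p = 0.2), and somatostatin (SST) 0.276, 2.39 and 1.86 TPM at E40, 8.68 and 7.71 TPM at P8 and 6.24 and 22.3 TPM at P22 (2.24 ± 1.04, adjusted p = 0.12). TAC1, which encodes substance P, held 62.7, 26.9 and 56.9 TPM at E40 and was listed at 0 in all 4 neonatal libraries (adjusted p = 2.3e-05).

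**Figure D2:**
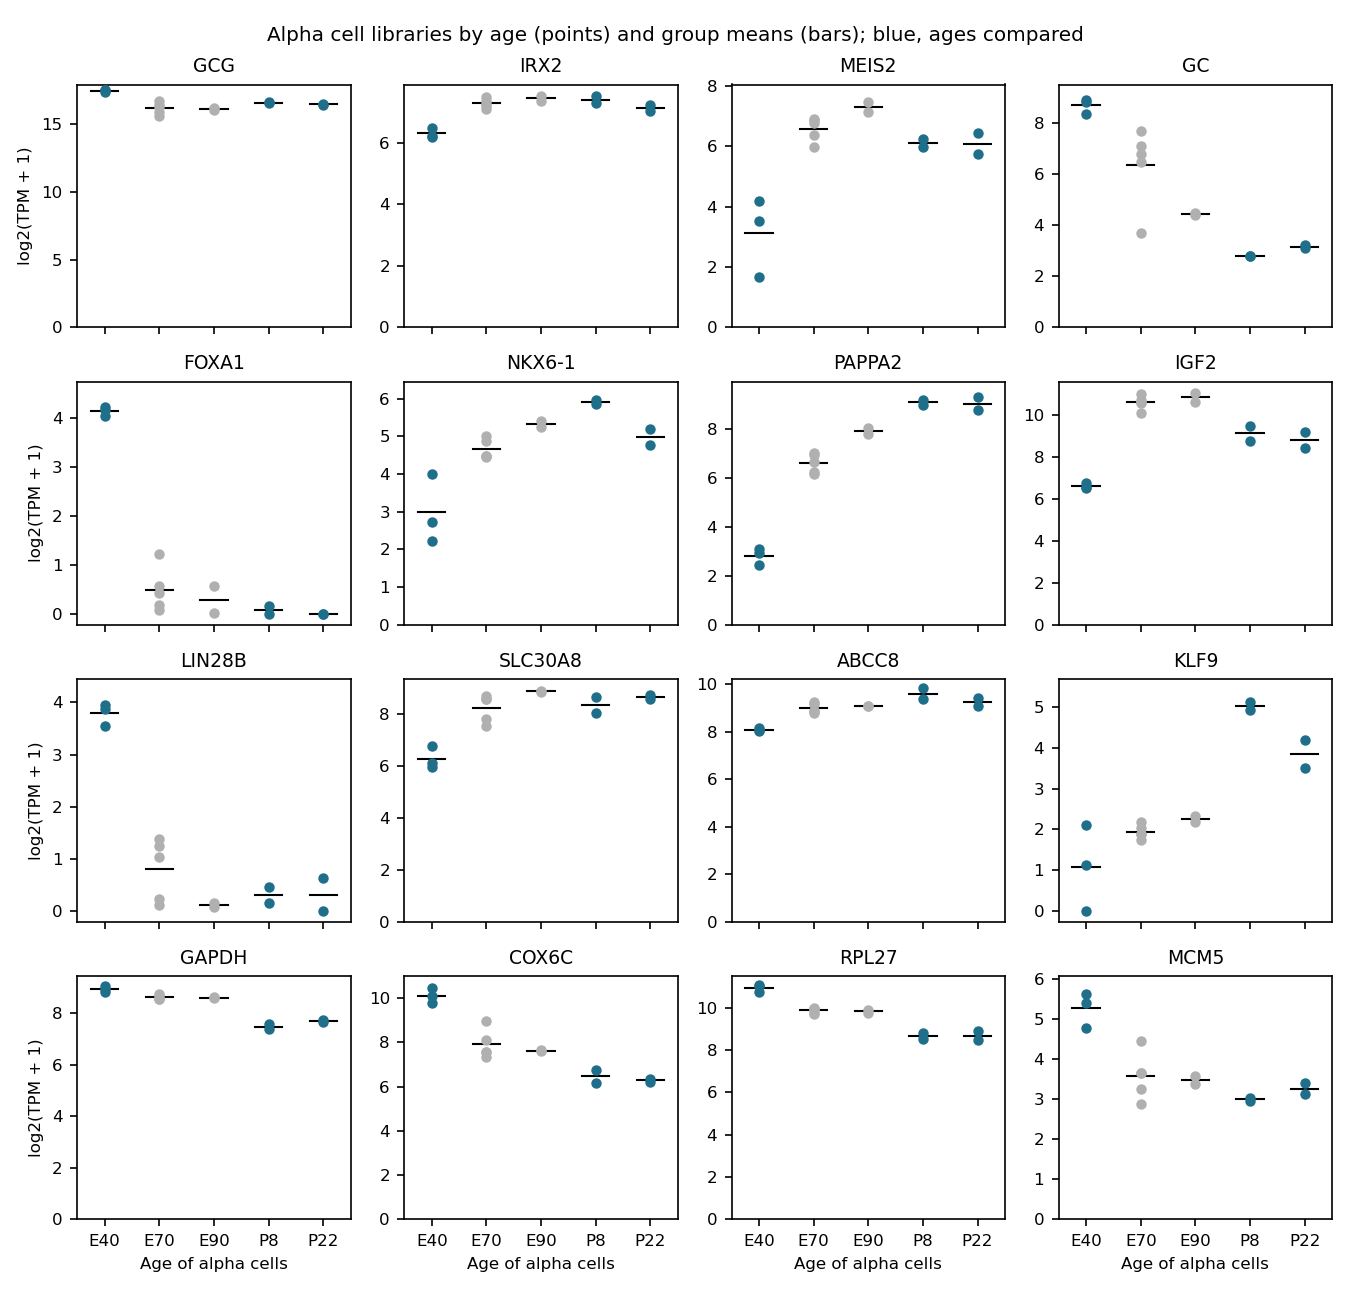
Level of 16 genes in every alpha cell library (points, vertical axis log2(TPM + 1)) by age (horizontal axis); bars are group means, blue points the E40, P8 and P22 libraries compared, grey points E70 and E90. FOXA1 and LIN28B were low from E70 on, IGF2 was highest at E70 and E90, and KLF9 was highest after birth.

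Genes of hormone storage and release changed one by one. Of 19 genes of hormone processing and granules 6 rose and 5 fell (median 0.02), and with median-of-ratios scaling 2 rose and 7 fell. There were 3 rises without P8 replicate 2, and 3 falls without E40 replicates 1 or 2, P22 replicate 1 or P8 replicates 1 or 2, and 2 falls without E40 replicate 3. SLC30A8, which loads zinc into granules, held 106, 68.1 and 61.5 TPM at E40, 397 and 261 TPM at P8 and 375 and 423 TPM at P22 (2.22 ± 0.24, adjusted p = 2.3e-07). PCSK1N, the proSAAS inhibitor of prohormone convertase, rose from between 89.3 and 159 TPM to between 277 and 469 TPM (1.63 ± 0.26, adjusted p = 5.3e-05). Of the enzymes PAM, which amidates peptide ends, fell from between 271 and 291 TPM to between 89.4 and 129.7 TPM (-1.40 ± 0.19, adjusted p = 5.5e-06), and carboxypeptidase D (CPD) from between 43.5 and 52 TPM to between 21.1 and 27.8 TPM (-0.95 ± 0.22, adjusted p = 0.0022).

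In the release machinery 6 of 26 genes rose and 2 fell, a share near that of all genes, against 2 and 4 with median-of-ratios scaling. Leaving out a library gave 3 rises without E40 replicate 2, P22 replicate 1 or P8 replicate 2, and 2 rises without E40 replicate 3. It also gave 1 fall without P22 replicates 1 or 2, and 0 falls without E40 replicate 1 or P8 replicate 1. CPLX2, a complexin that clamps vesicle fusion, rose from between 203 and 282 TPM to between 707 and 948 TPM (1.83 ± 0.18, adjusted p = 3.9e-08). The synaptotagmin gene SYT13 rose from between 21.2 and 24.4 TPM to between 43.5 and 60.8 TPM (1.17 ± 0.20, adjusted p = 1.3e-04).

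Of 30 ion channel genes of islet cells 9 rose and 0 fell, against 16.8% and 7.1% of all genes (median 0.53), 8 with median-of-ratios scaling, which also called 1 fall, and 8 to 9 with 1 library left out. ABCC8, the sulfonylurea receptor subunit of the ATP-sensitive potassium channel, held 281, 269 and 261 TPM at E40, 661 and 905 TPM at P8 and 545 and 690.2 TPM at P22 (1.34 ± 0.19, adjusted p = 9.8e-06). The neonatal values were all at least 545 TPM, the E40 values at most 281 TPM. KCNB2, a delayed rectifier potassium channel gene, rose from between 81.4 and 92.8 TPM to between 172 and 251 TPM (1.27 ± 0.20, adjusted p = 5.3e-05). The calcium channel genes CACNA2D2 (between 14.4 and 19.5 TPM at E40 and between 64.7 and 82 TPM after birth; 2.04 ± 0.31, adjusted p = 2.5e-05) and CACNA1C (between 6.6 and 12.6 TPM at E40 and between 21.2 and 25.8 TPM after birth; 1.34 ± 0.27, adjusted p = 7.4e-04) rose too.

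Receptors through which hormones and nutrients act on alpha cells rose in 11 and fell in 1 of 36 cases, against 16.8% and 7.1% of all genes. Their median of 0.33 was close to that of all genes, 0.26. Median-of-ratios scaling gave 11 rises and 3 falls, against 11.4% and 11.6% of all genes. The prolactin receptor gene PRLR rose from between 37.9 and 54.1 TPM to between 114 and 162 TPM (1.59 ± 0.28, adjusted p = 1.7e-04), and its group means of 39.6 TPM at E70 and 70.6 TPM at E90 were below all 4 neonatal values. The calcium-sensing receptor gene CASR held 7.78, 5.12 and 8.77 TPM at E40, 21.2 and 17.1 TPM at P8 and 49.2 and 34.1 TPM at P22 (1.85 ± 0.34, adjusted p = 2.7e-04). The sorting receptor gene SORL1 rose from between 32.3 and 47.5 TPM to between 66.9 and 97.8 TPM (0.93 ± 0.16, adjusted p = 9.6e-05).

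Targets and receptors of the hormones that surge around birth were among the lists with the most rises. Of 21 tested, 10 rose and 1 fell (median 1.24), against 16.8% and 7.1% of all genes, and 9 and 1 with median-of-ratios scaling. KLF9, a transcription factor gene induced by glucocorticoid and thyroid hormone, held 0, 3.3 and 1.21 TPM at E40, 33.8 and 29 TPM at P8 and 17.3 and 10.3 TPM at P22 (3.35 ± 0.35, adjusted p = 1.2e-07). Its means at E70 and E90 were 2.89 and 3.79 TPM, so most of the difference lay between E90 and P8. FKBP5, a co-chaperone gene induced by glucocorticoid, rose from between 34.9 and 56.8 TPM to between 98 and 195 TPM (1.72 ± 0.23, adjusted p = 4.3e-06). The receptor genes NR3C2 (mineralocorticoid receptor, 2.27 ± 0.33, adjusted p = 1.6e-05) and THRA (thyroid hormone receptor alpha, 1.60 ± 0.26, adjusted p = 6.3e-05) rose. THRA held 6.24, 15.3 and 11.9 TPM at E40, 29.1 and 32.2 TPM at P8 and 43.3 and 32.3 TPM at P22, with a mean of 42.5 TPM at E70.

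Clock genes rose in 12 of 18 cases and fell in 0 (median 1.47), against 16.8% and 7.1% of all genes. Median-of-ratios scaling gave 11 and 1, and leaving out 1 library 12 to 14 (without P22 replicate 2) rises. PER3, a repressor of the clock loop, rose from between 2.44 and 4.83 TPM to between 15.2 and 23 TPM (2.05 ± 0.27, adjusted p = 4.9e-06). The repressor gene CIART rose from between 0.3 and 3.36 TPM to between 8.25 and 17.1 TPM (2.42 ± 0.36, adjusted p = 1.7e-05). BHLHE40 was at 0.0877, 0.328 and 0 TPM at E40 and 16.8, 11.9, 14.4 and 2.95 TPM after birth (3.27 ± 0.42, adjusted p = 2.7e-06). The labels give no time of day for any library, so its part in these values was not tested.

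**Figure D3:**
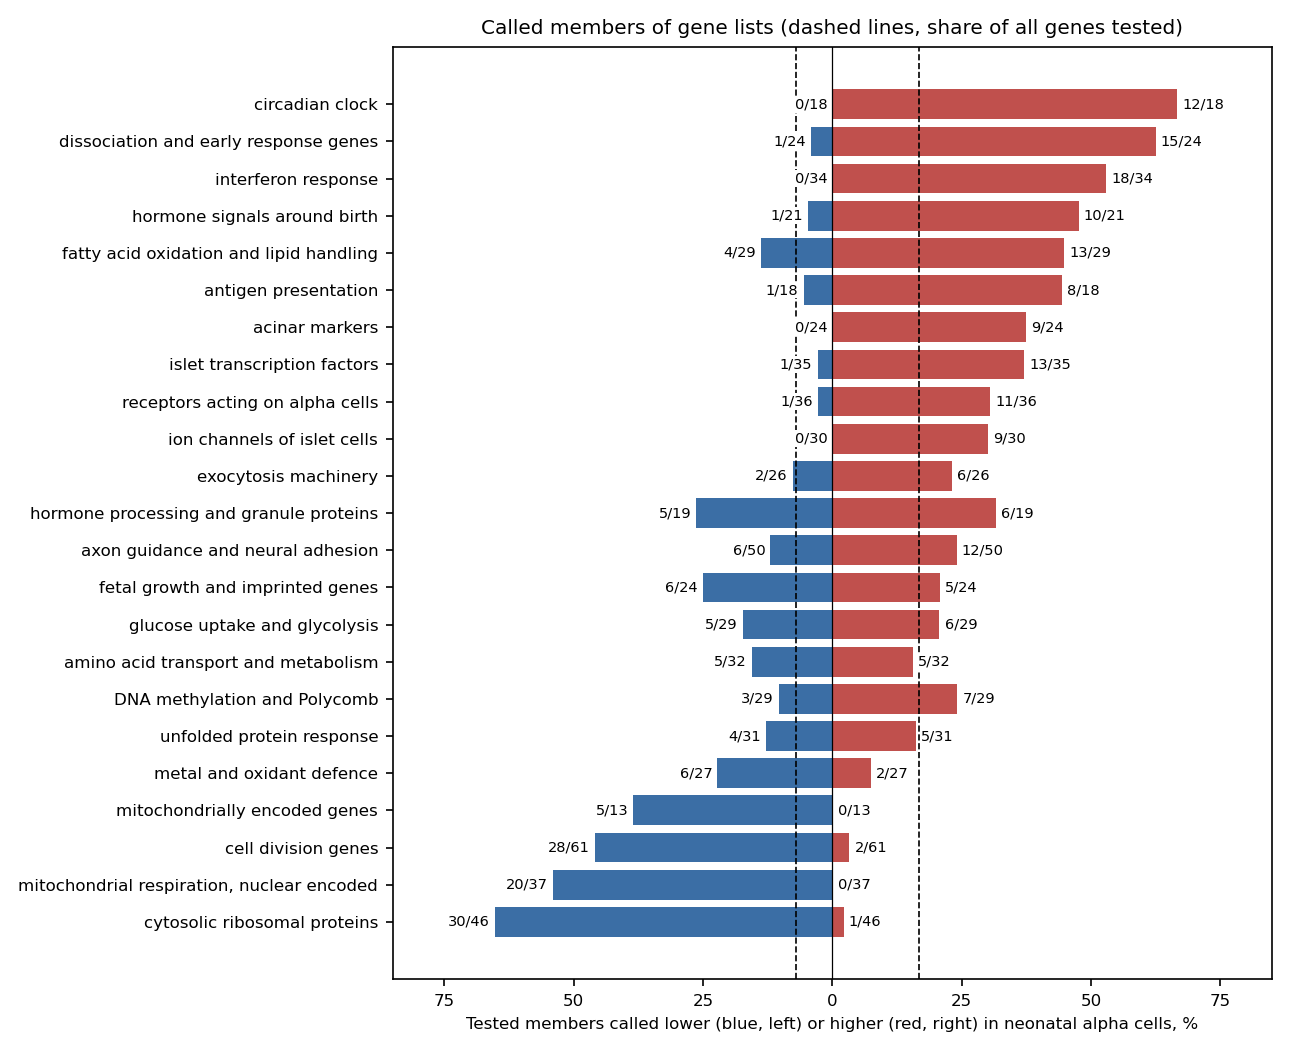
Share of tested members of 23 gene lists that rose (red, right) or fell (blue, left) in neonatal against E40 alpha cells, in percent, with the counts beside the bars; dashed lines mark the 16.8% and 7.1% of all genes. Clock, early response, interferon and birth hormone lists lie farthest to the right, ribosomal, respiratory and cell division lists farthest to the left.

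Genes that handle glucose changed in both directions. Of 29 genes of glucose uptake and glycolysis 6 rose and 5 fell, and median-of-ratios scaling turned this to 4 and 12. With a library left out there were 3 rises without E40 replicate 1, and 3 falls without E40 replicate 1, P22 replicate 2 or P8 replicate 1. G6PC2, which dephosphorylates glucose 6-phosphate in islet cells, held 2.95, 0.819 and 1.15 TPM at E40, 51.4 and 115 TPM at P8 and 21.1 and 117 TPM at P22 (4.66 ± 0.55, adjusted p = 6.9e-07). The 2 neonatal libraries with most INS, 1498 and 3907 TPM, also had the most G6PC2. Neonatal beta cells held 679 ± 442 TPM of G6PC2 and 307427 ± 51775 TPM of INS (SD, n = 5), and the part of admixed beta cells in the rise was not tested. The glycolytic enzyme gene GAPDH fell from 458, 528 and 493 TPM to 164, 188, 202 and 211 TPM (-1.36 ± 0.17, adjusted p = 1.9e-06), whereas the enolase gene ENO2 rose from between 1.91 and 10.03 TPM to between 20.6 and 65.8 TPM (2.32 ± 0.48, adjusted p = 9.3e-04). SLC2A2, the glucose transporter gene of beta cells, was low and fell further, from between 5.95 and 14 TPM to between 1.52 and 1.81 TPM (-1.77 ± 0.43, adjusted p = 0.0038).

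Amino acid genes were split, 5 rises and 5 falls among 32 (4 and 7 with median-of-ratios scaling). There were 3 rises without E40 replicates 1 or 2 or P8 replicate 2. GLUD1, glutamate dehydrogenase, which passes glutamate on to the citric acid cycle, held 774, 836 and 907 TPM at E40, 195 and 336 TPM at P8 and 331 and 409 TPM at P22 (-1.44 ± 0.22, adjusted p = 2.7e-05). The means of GLUD1 at E70 and E90 were 1068 and 845 TPM, so the difference lay after E90. The amino acid transporter gene SLC38A2 fell from between 23.4 and 42.7 TPM to between 2.31 and 4.46 TPM (-2.86 ± 0.39, adjusted p = 5.3e-06), and asparagine synthetase (ASNS) from between 117 and 131 TPM to between 22.6 and 36.1 TPM (-2.03 ± 0.28, adjusted p = 6.0e-06).

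Lipid genes rose in 13 and fell in 4 of 29 cases (median 0.67), against 16.8% and 7.1% of all genes. Median-of-ratios scaling gave 8 and 4, and a fit of the 7 libraries alone 5 and 2. Leaving out a library gave 8 rises without E40 replicate 1 or P22 replicate 1, and 2 falls without E40 replicate 2. With the hormone and mitochondrial genes removed and the rest rescaled to the same total, 4 rose and 4 fell. CPT1A, the gate of fatty acids into mitochondria, held 16.5, 14.6 and 10.4 TPM at E40, 92.4 and 81.8 TPM at P8 and 53.6 and 51 TPM at P22 (2.23 ± 0.41, adjusted p = 2.3e-04). The acyl-CoA synthetase gene ACSL5 rose from between 0.0953 and 0.591 TPM to between 4.12 and 6.62 TPM (2.26 ± 0.40, adjusted p = 1.9e-04), and HADHA, of the mitochondrial oxidation spiral, from between 23.4 and 27.3 TPM to between 37.2 and 45.2 TPM (0.67 ± 0.15, adjusted p = 0.0014). FABP5, a fatty acid binding protein gene, held 1389, 1332 and 1002 TPM at E40 and 42.7, 246, 91.9 and 113 TPM in the neonatal libraries (-3.57 ± 0.70, adjusted p = 4.9e-04). It was already down to 108 ± 36.9 TPM (SD, n = 5) at E70. Cholesterol synthesis genes gave 1 rise, the regulator SREBF2 (1.01 ± 0.24, adjusted p = 0.0027), and 1 fall, FDFT1 (-0.85 ± 0.21, adjusted p = 0.004), among 21.

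Genes of the respiratory chain and of the ribosome fell far more often than they rose. Of 37 nuclear genes of mitochondrial respiration 20 fell and 0 rose (median -0.72). Leaving out 1 library gave 15 (without E40 replicate 3) to 19 falls, and median-of-ratios scaling 24. The 7 libraries alone gave 13 falls. COX6C, a subunit of cytochrome c oxidase, held 887, 1079.9 and 1419 TPM at E40, 70.7 and 107 TPM at P8 and 81 and 73.3 TPM at P22 (-3.74 ± 0.41, adjusted p = 2.1e-07). COX7C (-3.01 ± 0.43, adjusted p = 1.0e-05) and COX5B (-2.20 ± 0.33, adjusted p = 2.0e-05), of the same complex, and the ATP synthase subunit gene ATP5F1A (-1.60 ± 0.20, adjusted p = 1.8e-06) fell too, each without overlap between the groups. At E70 COX6C was at 262 ± 142 TPM (SD, n = 5).

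Of 13 genes of the mitochondrial genome 5 fell. MT-ND4, a complex I subunit, held 5875, 5329.7 and 6653 TPM at E40, 3908 and 3043 TPM at P8 and 1489 and 1965 TPM at P22 (-1.29 ± 0.23, adjusted p = 2.1e-04), and MT-ND5 4264, 3979 and 4567 TPM at E40, 3781 and 2853 TPM at P8 and 1475 and 1969.5 TPM at P22 (-0.85 ± 0.21, adjusted p = 0.0034). The P22 libraries were below the P8 libraries in both. With P8 alone as the neonatal group 0 of the 13 were called, and with P22 alone 6. A fit of the 7 libraries alone gave 1 fall. With a library left out there were 3 falls without E40 replicate 3, P22 replicate 1 or P8 replicate 2.

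Among 46 cytosolic ribosomal protein genes 30 fell and 1 rose (median -0.99). Quantile normalization left 12 falls and 0 rises, and P22 alone 12 falls. RPL27 held 1729, 2080.1 and 2136 TPM at E40, 373 and 441 TPM at P8 and 354 and 471 TPM at P22 (-2.28 ± 0.25, adjusted p = 2.3e-07). RPLP0 fell from between 2051 and 3269.9 TPM to between 339 and 763 TPM (-2.44 ± 0.32, adjusted p = 3.9e-06), although its means at E70 and E90 were 2822 and 5118 TPM. RPS18 fell as well (-1.84 ± 0.29, adjusted p = 4.2e-05). Many ribosomal protein genes have near-identical copies in the genome, between which reads can be split, so single values are uncertain.

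**Figure D4:**
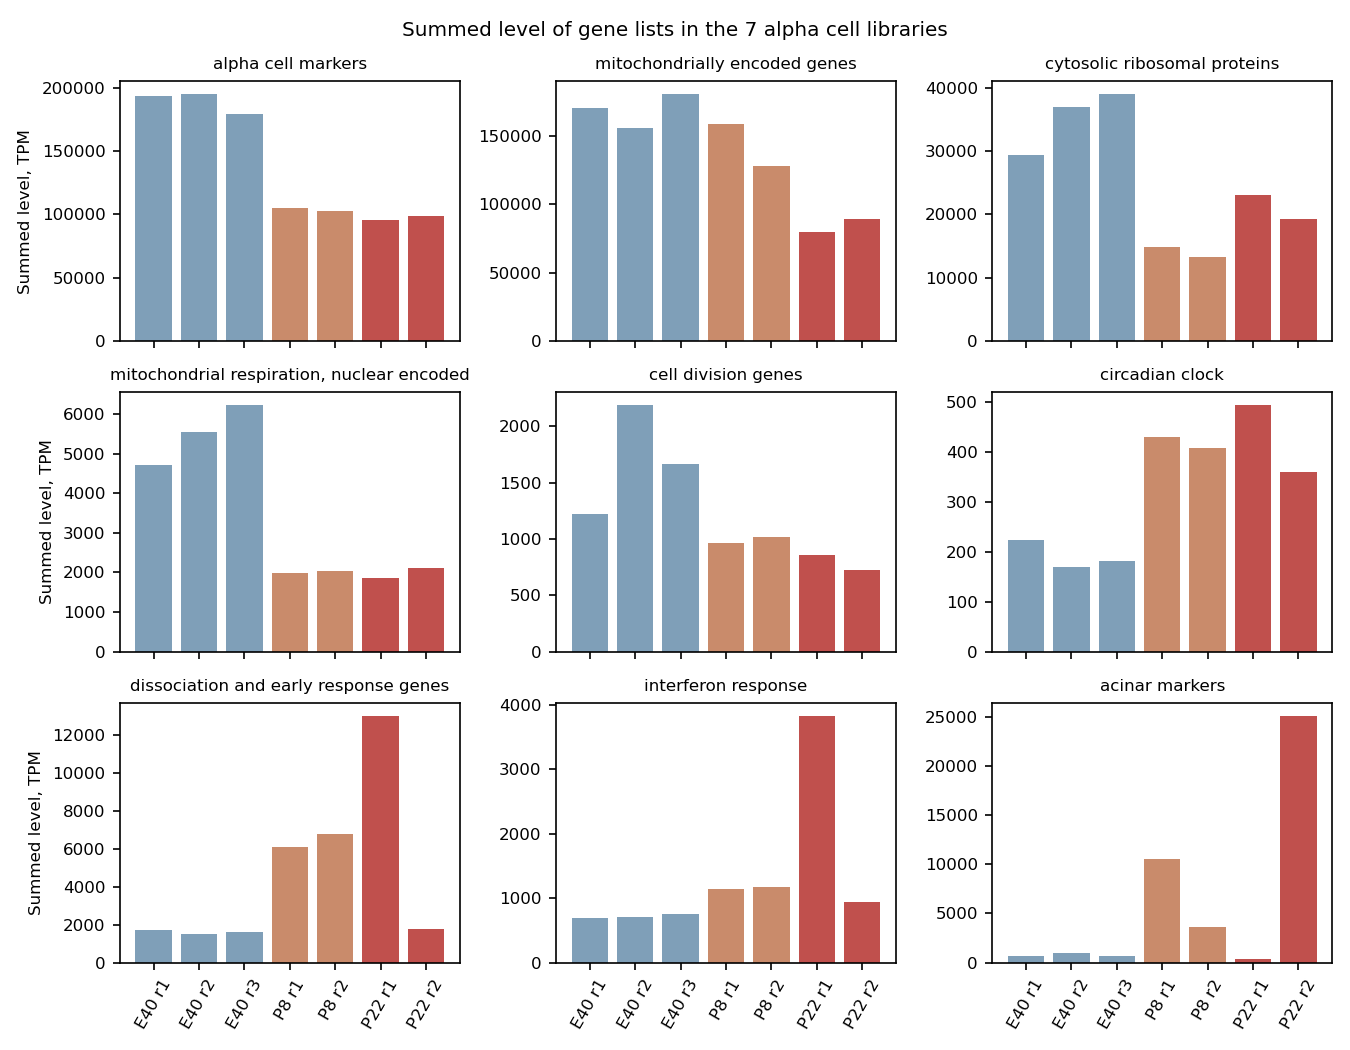
Summed level of 9 gene lists (vertical axis, TPM) in each of the 7 libraries (r1 to r3, replicates; blue E40, orange P8, red P22). The nuclear respiration list fell from at least 4716 TPM to at most 2113 TPM, the early response and interferon lists were highest in P22 replicate 1, and the acinar list was highest in P22 replicate 2.

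PAPPA2, a secreted protease that cleaves IGF-binding proteins and so frees insulin-like growth factors, held 4.36, 6.63 and 7.52 TPM at E40, 503 and 589 TPM at P8 and 625 and 442 TPM at P22 (6.25 ± 0.33, adjusted p = 6.4e-14). The groups were separated by a wide gap, the means at E70 and E90 were 99.4 and 243 TPM, and the gene was called in each of the 18 alternative fits. IGF2, the fetal growth factor, held 92.6, 95 and 109.9 TPM at E40, 437 and 726 TPM at P8 and 586 and 348 TPM at P22 (2.34 ± 0.30, adjusted p = 3.0e-06). Its course was not a steady one: the means were 1617 ± 348 TPM (SD, n = 5) at E70 and 1891 ± 396 TPM (SD, n = 2) at E90, so the neonatal values were above E40 and below the late fetal means. Of the binding proteins that PAPPA2 is known to cut, IGFBP5 held 99.1, 97.5 and 95.4 TPM at E40, 75.6 and 97.8 TPM at P8 and 150.1 and 144 TPM at P22 (0.21 ± 0.31, adjusted p = 0.7) and IGFBP3 0 to 1.33 and then 1.36 to 13.5 TPM (2.02 ± 0.53, adjusted p = 0.0059). These binding proteins were named after their values were seen.

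The fetal growth and imprinted genes as a list were mixed, 5 rises and 6 falls of 24, against 3 and 8 with median-of-ratios scaling. There were 3 rises without P8 replicate 2, and 2 rises without E40 replicate 1. LIN28B, which blocks maturation of let-7 microRNAs in fetal cells, held 14.4, 13.6 and 10.7 TPM at E40 and 0.377, 0.119, 0.556 and 0 TPM after birth (-3.47 ± 0.35, adjusted p = 7.8e-08). IGF2BP1, a fetal mRNA-binding protein gene, fell from 10.9, 40.7 and 38.5 TPM to 3.59, 4.3, 0.506 and 0.555 TPM (-3.30 ± 0.43, adjusted p = 3.3e-06), with the P22 libraries lowest. PEG10, an imprinted gene derived from a retrotransposon, fell from between 299 and 324 TPM to between 35.3 and 64.3 TPM (-2.61 ± 0.47, adjusted p = 1.8e-04), after means of 569 and 582 TPM at E70 and E90. ZFP42, known as a marker of pluripotent cells, fell from between 18.4 and 40.6 TPM to between 0 and 1.75 TPM (-4.38 ± 0.77, adjusted p = 1.4e-04).

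Cell division genes fell in 28 and rose in 2 of 61 cases (median -1.09), against 7.1% and 16.8% of all genes. Leaving out 1 library gave 16 (without E40 replicate 2) to 32 (without E40 replicate 1) falls, and P8 alone 12. Without E40 replicate 2 there were also 5 rises. The 7 libraries alone gave 11 falls and 1 rise. MCM5, of the replication helicase, held 48.4, 41 and 26.2 TPM at E40, 6.78 and 7.11 TPM at P8 and 7.77 and 9.49 TPM at P22 (-2.13 ± 0.35, adjusted p = 5.6e-05). Its partner MCM6 fell from between 64.7 and 84.5 TPM to between 19.4 and 37.6 TPM (-1.47 ± 0.20, adjusted p = 7.1e-06), the ribonucleotide reductase gene RRM2 from between 9.9 and 18.7 TPM to between 0 and 2.83 TPM (-2.63 ± 0.53, adjusted p = 6.7e-04), and the DNA polymerase gene POLE from between 6.05 and 10.9 TPM to between 0.639 and 2.46 TPM (-2.10 ± 0.43, adjusted p = 7.7e-04). The phosphatase gene CDKN3, expressed in dividing cells, held 189.7, 38.6 and 21.7 TPM at E40, highest in replicate 1, and 3.12, 4.2, 0 and 2.75 TPM after birth (-4.21 ± 0.90, adjusted p = 0.0011). The 2 list members that rose, named after their values were seen, were PRC1, a gene of the cytokinetic spindle (between 1.57 and 13.2 TPM at E40 and between 17.4 and 64 TPM after birth; 2.39 ± 0.52, adjusted p = 0.0013), and the transcription factor gene MYBL2 (2.67 ± 0.84, adjusted p = 0.021; adjusted p = 0.1 without E40 replicate 1 and 0.059 without P8 replicate 2). Replication-dependent histone genes were among the largest falls, HIST1H2AD from between 160.2 and 406 TPM to between 0 and 39.98 TPM (-4.73 ± 0.98, adjusted p = 8.4e-04) and HIST1H2BH from between 88.6 and 251 TPM to between 1.47 and 24.5 TPM (-4.21 ± 1.06, adjusted p = 0.0048).

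Chromatin regulators moved both ways. EZH2, the methyltransferase of Polycomb complex PRC2, fell from 37.8, 32.9 and 24.1 TPM to 16.2 and 15.9 TPM at P8 and 2.94 and 6.06 TPM at P22 (-1.76 ± 0.29, adjusted p = 7.3e-05; 0.068 with P8 alone as the neonatal group), and the remodeller gene HELLS from between 38.1 and 53.3 TPM to between 13 and 24.5 TPM (-1.19 ± 0.26, adjusted p = 0.0013). CBX7, a reader subunit of the other Polycomb complex, rose from 0.414, 22.4 and 22.9 TPM to 37, 67.1, 75.1 and 89.1 TPM (2.81 ± 0.58, adjusted p = 8.1e-04), with E40 replicate 1 far below its group. Of 29 such genes 7 rose and 3 fell, and median-of-ratios scaling turned this to 4 and 9. The 7 libraries alone gave 1 rise and 2 falls. Leaving out a library gave 4 rises without P8 replicate 2. RBL1, a pocket protein that restrains the cell cycle, fell from between 38.3 and 47.8 TPM to between 19 and 24.8 TPM (-0.91 ± 0.20, adjusted p = 0.0015).

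Adhesion and guidance genes that neurons and islet cells share gave 12 rises and 6 falls among 50, against 5 and 6 without alpha E40 replicate 1 and 5 and 7 with quantile normalization. The 3 members named here rose under these settings too: the guidance receptor gene ROBO2 from between 34.3 and 37.6 TPM to between 109 and 162 TPM (1.90 ± 0.26, adjusted p = 5.7e-06), the semaphorin gene SEMA6D from between 2.15 and 4.66 TPM to between 26.4 and 41.5 TPM (2.85 ± 0.31, adjusted p = 2.6e-07), and the neural adhesion gene CNTN1 (1.68 ± 0.30, adjusted p = 1.9e-04). With the 7 libraries alone 4 of the 50 rose and 4 fell. Fibronectin (FN1), a matrix protein gene, fell from 23.4, 26.8 and 25 TPM to 0.455, 0.0893, 1.18 and 0.974 TPM (-4.01 ± 0.32, adjusted p = 1.3e-09), and the microfibril gene MFAP2 from between 22.3 and 43.9 TPM to between 0 and 5.45 TPM (-3.37 ± 0.55, adjusted p = 7.0e-05).

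Pathway genes of Notch, Wnt, Hedgehog and BMP signals showed 6 rises and 5 falls of 52, and 3 and 13 with quantile normalization. With a library left out there were 3 rises without E40 replicate 1 or P22 replicate 1, and 3 falls without E40 replicates 1, 2 or 3, P22 replicates 1 or 2 or P8 replicate 1. SMAD7, an inhibitor of TGF-beta signals, rose from between 1.95 and 3.23 TPM to between 9.9 and 11.5 TPM (1.82 ± 0.30, adjusted p = 7.3e-05). GATA6, an endoderm factor gene from the list of progenitor genes, rose from 5.15, 8.45 and 5.59 TPM to 52.5, 54, 51.4 and 45.7 TPM (2.84 ± 0.50, adjusted p = 1.5e-04). In that list INSM1, MYT1 and GADD45A also rose, and COTL1, SOX11, CDKN1A and the GATA6 paralog GATA4 fell.

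In the secretory pathway the chaperone genes HSP90B1 (between 1898 and 2292 TPM at E40 and between 655 and 834 TPM after birth; -1.44 ± 0.33, adjusted p = 0.0022) and PDIA3 (between 387 and 476 TPM at E40 and between 191 and 251 TPM after birth; -1.05 ± 0.20, adjusted p = 3.1e-04) fell, while 5 of the 31 unfolded protein response genes rose and 4 fell in all (3 and 9 with median-of-ratios scaling). There were 3 rises without E40 replicate 3 or P22 replicate 1. CTSZ, a lysosomal cathepsin, was high at E40 with 1207, 1289 and 1171 TPM and held 209, 321, 105 and 244 TPM after birth (-2.58 ± 0.38, adjusted p = 1.6e-05). The autophagy genes SQSTM1 (1.17 ± 0.20, adjusted p = 9.0e-05) and GABARAPL1 (0.97 ± 0.18, adjusted p = 3.3e-04) rose. Of the oxidant defence genes, the peroxidase genes GPX1 (between 35.5 and 57.7 TPM at E40 and between 0 and 10.9 TPM after birth; -3.50 ± 0.86, adjusted p = 0.004) and GPX4 (between 121 and 165 TPM at E40 and between 23 and 106 TPM after birth; -1.52 ± 0.33, adjusted p = 0.0012) fell, and GCLC, which starts glutathione synthesis, rose from 0.935, 11.7 and 15.5 TPM to 47.3, 69.99, 42.9 and 49.8 TPM (2.83 ± 0.48, adjusted p = 8.8e-05), with E40 replicate 1 again far below its group. CYP27A1, a mitochondrial sterol hydroxylase, was among the largest rises, from 0, 0.423 and 1.18 TPM to 51.5, 38.4, 47.4 and 56.5 TPM (5.07 ± 0.50, adjusted p = 5.1e-08), as was the matrix metalloproteinase gene MMP11, from between 0.774 and 6.26 TPM to between 52.9 and 185 TPM (4.81 ± 0.57, adjusted p = 7.8e-07).

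Other large changes were in single genes. TSPAN6, a tetraspanin gene, held 127, 145 and 149 TPM at E40 and 4.87, 0, 1.65 and 9.29 TPM after birth (-5.31 ± 0.89, adjusted p = 8.1e-05), with means of 24.4 TPM at E70 and 8.55 TPM at E90. The prostaglandin receptor gene PTGFR went from 33.7, 25.2 and 27.2 TPM to 1.23, 0.195, 1.82 and 0 TPM (-4.15 ± 0.65, adjusted p = 3.8e-05). LAYN, the gene of the hyaluronan receptor layilin, held 20.3, 16.6 and 12.9 TPM at E40 and 0.135, 0, 0 and 0 TPM after birth (-4.07 ± 0.44, adjusted p = 2.1e-07). RALYL, an RNA-binding protein gene, held 27.5, 17 and 14 TPM at E40 and was listed at 0 in all 4 neonatal libraries (adjusted p = 6.9e-07). MAMDC2, which encodes a secreted protein, rose from 0.353, 1.75 and 8.38 TPM to 83, 83.2, 102 and 91.4 TPM (4.79 ± 0.62, adjusted p = 2.9e-06), after means of 5.73 and 4.78 TPM at E70 and E90.

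Of 34 interferon response genes 18 rose and 0 fell (median 1.30), against 16.8% and 7.1% of all genes. A fit of the 7 libraries alone gave 8 rises, where 1373 of all 17839 genes rose. Leaving out a library gave 11 rises without E40 replicate 1 or P8 replicate 2, and 10 rises without P22 replicate 1. Median-of-ratios scaling gave 15 rises and 2 falls. The list summed to 688, 703 and 754 TPM at E40, 1141 and 1173 TPM at P8 and 3831 and 945 TPM at P22. SP100, of nuclear bodies, held 0, 0.414 and 0.207 TPM at E40, 32.7 and 46.7 TPM at P8 and 74.4 and 22.4 TPM at P22 (5.10 ± 0.61, adjusted p = 8.3e-07). The transcription factor genes IRF1 (0.0463, 1.66 and 1.77 TPM at E40, 45.6 and 43.5 TPM at P8 and 74.8 and 41.4 TPM at P22; 4.69 ± 0.74, adjusted p = 4.2e-05) and IRF9 (0, 0.586 and 0 TPM at E40, 12 and 26 TPM at P8 and 91.7 and 18.7 TPM at P22; 4.60 ± 0.66, adjusted p = 1.1e-05) were likewise above E40 in each neonatal library. IFI6 was uneven, at 0.236, 1.79 and 2.73 TPM and then 30.7, 116, 2203 and 27.3 TPM, the highest being that of P22 replicate 1 (5.72 ± 1.02, adjusted p = 1.7e-04; 0.084 in a fit of the 7 libraries alone). In antigen presentation 8 of 18 genes rose and 1 fell, with 4 rises in the fit of the 7 libraries alone. TAPBP, the tapasin of peptide loading, rose from between 17.3 and 18.1 TPM to between 77.9 and 106 TPM (2.26 ± 0.30, adjusted p = 3.4e-06), and the light chain gene B2M held 61, 48 and 49.1 TPM at E40, 118 and 189.6 TPM at P8 and 542 and 112 TPM at P22 (1.86 ± 0.38, adjusted p = 8.6e-04). The immune cell gene PTPRC was at 0.203 to 0.976 TPM and then 2.78 to 4.34 TPM, and its part in these values was not tested.

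Early response genes, which handling of cells is known to induce, rose in 15 of 24 cases and fell in 1 (median 2.15), and leaving out 1 library gave 10 (without P22 replicate 1) to 18 (without P22 replicate 2) rises. Within the 7 libraries alone 5 rose, where 1373 of all 17839 genes rose. FOS held 1.5, 4.93 and 5.14 TPM at E40, 536 and 595 TPM at P8 and 1654 and 58.8 TPM at P22 (6.55 ± 1.40, adjusted p = 0.0012), FOSB 1.13, 0.484 and 0 TPM at E40, 567 and 602 TPM at P8 and 2137 and 50.8 TPM at P22 (8.23 ± 1.38, adjusted p = 8.6e-05), and EGR1 16.8, 4.53 and 3.64 TPM at E40, 714 and 616 TPM at P8 and 1619 and 95.6 TPM at P22 (6.06 ± 1.0, adjusted p = 7.5e-05). NR4A1 (8.71, 9.32 and 8.95 TPM at E40, 292 and 301 TPM at P8 and 323 and 29.6 TPM at P22; 4.11 ± 0.61, adjusted p = 1.8e-05) and the heat shock gene HSPA1A (47.5, 32.6 and 42.5 TPM at E40, 1361 and 1889 TPM at P8 and 2068 and 269 TPM at P22; 4.73 ± 0.74, adjusted p = 3.9e-05) followed the same order. In these 5 genes P22 replicate 2 was lowest of the neonatal libraries and P22 replicate 1 highest. All 4 neonatal libraries lay above every E40 library in each of them. The means of FOS were 121 TPM at E70 and 442 TPM at E90. How the cells of each age were dissociated is not given in the sources used here, so age and handling cannot be told apart.

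Of 24 transcripts of acinar cells, the enzyme-secreting cells that surround islets, 9 rose and 0 fell (median 2.70), and 6 (without P22 replicate 2) to 14 (without P22 replicate 1) rose with 1 library left out. The acinar list summed to 629, 976 and 615 TPM at E40, 10499 and 3650.2 TPM at P8 and 338 and 25103 TPM at P22. CPB1, a pancreatic carboxypeptidase, held 3.53, 0 and 0 TPM at E40, 455 and 178 TPM at P8 and 7.15 and 1983 TPM at P22 (6.85 ± 1.27, adjusted p = 2.7e-04), and the lipase gene PNLIPRP1 27, 3.73 and 2.47 TPM at E40, 2941 and 606 TPM at P8 and 131 and 7253 TPM at P22 (7.21 ± 1.39, adjusted p = 4.3e-04). Both were highest in P22 replicate 2 and lowest of the neonatal libraries in P22 replicate 1, where the list sum was below each E40 value. CPA1, which fetal progenitors also express, was not called (306, 678 and 416 TPM at E40, 1789 and 668 TPM at P8 and 26.8 and 3553 TPM at P22; 0.41 ± 1.43, adjusted p = 0.9). In a fit of the 7 libraries alone 1 acinar gene rose and 1 fell, and the adjusted p of CPB1 and PNLIPRP1 was 0.09 and 0.055. Of all 17839 genes, 1373 rose and 786 fell in that fit. In neonatal beta cells CPB1 stood at 919 TPM on average. The part of acinar transcripts in other genes was not tested.

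Defining markers of further cell types were present at various levels. Summed over the genes fixed as defining, mesenchyme markers held 20.2 to 32 TPM at E40 and 4.87 to 7.81 TPM after birth, endothelial markers 2.0 to 12.5 and 19.4 to 28.9 TPM, immune markers 1.91 to 4.42 and 12.8 to 18.8 TPM, and red blood cell markers 10.4 to 201 and 0 to 11.1 TPM. Beta markers, mostly INS, held 73.9 to 1146 and 285 to 3946 TPM and delta markers 5.37 to 18.5 and 28.4 to 43.5 TPM. PDGFRA (mesenchyme) and KDR (endothelium) were below 1 TPM in all 7 libraries. Single members of these lists rose at low levels: PLVAP of endothelium (2.64, 4.56 and 5.64 TPM at E40, 32.1 and 26.5 TPM at P8 and 23.2 and 19.6 TPM at P22; 2.34 ± 0.30, adjusted p = 2.9e-06), VWF of endothelium (1.98, 5.66 and 5.85 TPM at E40, 21.6 and 19 TPM at P8 and 17 and 13.7 TPM at P22; 1.85 ± 0.31, adjusted p = 8.4e-05), EPB42 of red cells (1.39, 3.79 and 4.58 TPM at E40, 30.8 and 19.5 TPM at P8 and 12.7 and 17.8 TPM at P22; 2.34 ± 0.38, adjusted p = 5.8e-05), and ITGAM of myeloid cells (1.88, 6.15 and 8.55 TPM at E40, 20.3 and 14.3 TPM at P8 and 17.8 and 15.3 TPM at P22; 1.61 ± 0.37, adjusted p = 0.0024). In each of them alpha E40 replicate 1 was lowest.

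To ask whether the changes were particular to alpha cells, the change in alpha cells was tested against the change in beta cells over the same ages. It differed for 1732 genes (9.71%), upward in alpha cells relative to beta cells for 1604 (8.99%) and downward for 128 (0.718%). This split rested on the scaling, since the median difference of all genes was 0.51: with median-of-ratios scaling, which brought it to 0.03, 180 genes were higher and 283 lower. Of the 1604 and 128, 142 and 75 were called in the same direction with median-of-ratios scaling, with quantile normalization and without alpha E40 replicate 1. Leaving out 1 library gave 827 calls without alpha E40 replicate 1, 962 without alpha P22 replicate 1, 1045 without alpha P8 replicate 2 and 803 without beta P8 replicate 1. In 6 of the 7 alpha libraries the number in the title follows that of a beta library of the same age. The labels do not say whether such libraries share animals or a sort, and the test treats them as separate. The genes named next were called in all 28 alternative fits unless a count is given.

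PAPPA2 rose more in alpha cells. Beta cells went from a mean of 29.5 to 115 TPM, and the difference of the changes was 4.25 ± 0.42, adjusted p = 6.9e-07. IGF2 rose in alpha cells while the beta mean went from 1376 to 914 TPM (2.90 ± 0.39, adjusted p = 4.0e-05). The chemokine gene CXCL12 rose from between 1.78 and 6.94 TPM to between 43.2 and 101 TPM in alpha cells, and the beta mean went from 20.2 to 6.45 TPM (5.52 ± 0.81, adjusted p = 1.6e-04). PCDH17, a protocadherin gene, rose in alpha cells from 0.38, 6.33 and 4.25 TPM to 48.8, 50.6, 63.4 and 63.4 TPM and went from 76.7 to 54.1 TPM in beta cells (4.38 ± 0.47, adjusted p = 2.7e-06). PROKR1, a prokineticin receptor gene, rose from 0, 0.928 and 0.428 TPM to 9.61, 18.7, 28.7 and 26.9 TPM in alpha cells and went from 0.195 to 0.14 TPM in beta cells (3.93 ± 0.47, adjusted p = 5.9e-06). For SNCB, beta-synuclein, the alpha values lay between 0.0145 and 5.96 TPM at E40 and between 16.9 and 27 TPM after birth, and the beta mean went from 13.7 to 2.34 TPM (5.20 ± 0.86, adjusted p = 4.6e-04). ERC2, of neurotransmitter release sites, lay between 7.45 and 9.21 TPM and then between 6.49 and 16 TPM in alpha cells, and its beta mean went from 62.1 to 3.21 TPM (4.32 ± 0.48, adjusted p = 2.8e-06). The glypican gene GPC5 lay between 5.7 and 8.41 TPM and then between 1.58 and 6.68 TPM, against 192 to 7.15 TPM in beta cells (3.99 ± 0.63, adjusted p = 3.1e-04). CACNA2D2 (2.07 ± 0.40, adjusted p = 0.0018), SEMA6D (2.22 ± 0.40, adjusted p = 0.001) and MYT1L (2.46 ± 0.43, adjusted p = 7.6e-04) rose in alpha cells, against beta means that went from 23.6 to 20.3 TPM, 2.17 to 3.92 TPM and 24.9 to 10.4 TPM. ABCC8 (1.38 ± 0.24, adjusted p = 8.3e-04) and CPLX2 (1.40 ± 0.23, adjusted p = 3.7e-04) were called in 26 and 27 of the 28.

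In the other direction stood GC (-4.83 ± 0.85, adjusted p = 8.2e-04; 27 of the 28), which went from 2.98 to 0.807 TPM in beta cells, together with FOXA1 (-2.67 ± 0.51, adjusted p = 0.0017) and FN1 (-2.95 ± 0.41, adjusted p = 6.7e-05), with beta means that went from 2.66 to 0.28 TPM and from 46.6 to 21.9 TPM. SLC38A2 fell in alpha cells while the beta mean went from 40.05 to 24.2 TPM (-2.14 ± 0.49, adjusted p = 0.0076; 27 of the 28). MAFA went from 0.961 to 45.3 TPM in beta cells and stayed low in alpha cells, as given above (-3.93 ± 0.68, adjusted p = 6.4e-04). FXYD2, a regulator of the sodium pump, went from 2.8 to 78.2 TPM in beta cells and held 63.1, 19.6 and 23.1 TPM at E40, 19.2 and 10.4 TPM at P8 and 66.8 and 26.8 TPM at P22 in alpha cells (-4.49 ± 0.76, adjusted p = 5.5e-04). For COX6C (-0.52 ± 0.52, adjusted p = 0.55) and RPL27 (-0.12 ± 0.32, adjusted p = 0.85) no difference between the cell types was called, and an adjusted p of that size does not show that the changes were equal.

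**Figure D5:**
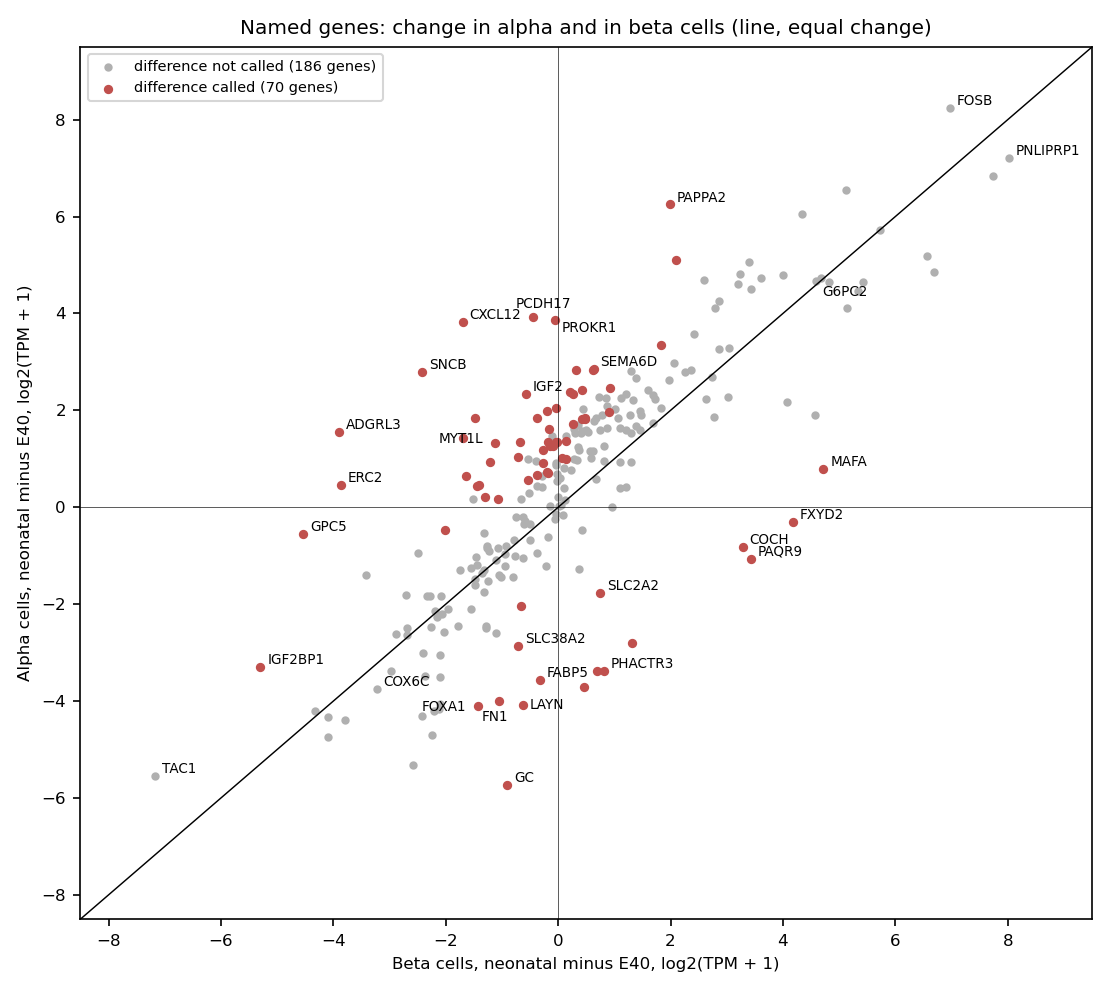
Change from E40 to neonatal in alpha cells (vertical axis) against that in beta cells (horizontal axis), both as differences of log2(TPM + 1), for the named genes (points). Red points differed between the cell types by the test (adjusted p below 0.05), grey points did not pass it, and the line marks equal change; PAPPA2, CXCL12 and PCDH17 lie above it and GC, FOXA1 and FXYD2 below.

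The 2 ages joined as neonatal were also set against each other. Between P22 and P8, 3 of 17839 genes (0.0168%) were called with limma, 1 higher (0.00561%) and 2 lower (0.0112%) at P22, against 838 at an unadjusted p below 0.05. The 3 carry no symbol. With only these 4 libraries in the fit 0 were called and 1173 passed the unadjusted threshold. Leaving out 1 of the 4 gave 12 calls without P22 replicate 1, 13 without P22 replicate 2 or P8 replicate 1, and 43 without P8 replicate 2.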

How the data were processed

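Pancreatic cells of pigs had been sorted by type, and total RNA was extracted with a RecoverAll kit and made into strand-specific libraries with a Takara SMARTer kit, per the labels' protocols. The authors deposited 1 table of TPM for 22630 genes, quantified with Salmon 0.11.3, per the submitters' processing notes. Which genome build and annotation were used is not given in the sources used here. The values sum to the same total in every library and keep no depth, so no interval from counts could be given; the number of libraries limits the precision. Each value is a share, so a rise of abundant genes lowers all others.

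The fit used log2(TPM + 1) of the 17839 genes with at least 1 TPM in at least 2 of the 37 libraries. limma 3.58.1 in R 4.3.3 fitted 12 group means (cell type by age) to all libraries, which left 25 residual degrees of freedom, with moderated variances and a mean-variance trend. P8 and P22 were weighted equally. P-values were two-sided and adjusted by Benjamini-Hochberg over all genes tested, with a threshold of 0.05. The script was checked on simulated data. Alternatives were a pseudocount of 0.1, other filters, other scalings, array weights, smaller fits, either neonatal age alone and leaving out each library.

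Members follow from the labels, but the comparison and the gene lists were chosen with earlier results of these data known. Named genes were the 15 largest called changes each way that had a symbol and 10 TPM or more in the higher group, the 4 members with the smallest adjusted p in each of 40 lists, all islet hormones and islet transcription factors, the 8 largest differences each way between the cell types, and defining markers of cell types; not each is given in the text, and some are not reported here. Those chosen after their values were seen are marked. Replicate numbers follow the order of deposition and pair nothing.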

Additional observations from a re-analysis of the deposited data

Results flagged for a closer look

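In 6 of 138 genes given with values, 1 of the 4 neonatal libraries lay farther from the other 3 than Dixon's 95% critical value allows, on the log2(TPM + 1) scale. Chance alone gives about 1 in 20. These were FOXA1 in P8 replicate 1 (0.119 TPM), LAYN in P8 replicate 1 (0.135 TPM), GHRL in P8 replicate 1 (3.63 TPM), FKBP5 in P22 replicate 2 (98 TPM), NR4A1 in P22 replicate 2 (29.6 TPM) and IRF1 in P22 replicate 1 (74.8 TPM). In FOXA1 and LAYN the library was the one of the 4 with a value above 0. With the other 3 at 0 any such value is flagged, so the rate of 1 in 20 does not apply to these genes. FKBP5 and NR4A1 were lowest in P22 replicate 2, and IRF1 was highest in P22 replicate 1.

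The change from E40 to the neonatal groups differed between alpha and beta cells, by the limma test of the difference, in 19 of the genes for which the difference is given. On the log2(TPM + 1) scale the alpha change exceeded the beta change for CXCL12 (5.52), SNCB (5.20), PCDH17 (4.38), ERC2 (4.32), PAPPA2 (4.25), GPC5 (3.99), PROKR1 (3.93), IGF2 (2.90), MYT1L (2.46), SEMA6D (2.21), CACNA2D2 (2.07), CPLX2 (1.40) and ABCC8 (1.38). It was below the beta change for GC (-4.83), FXYD2 (-4.49), MAFA (-3.93), FN1 (-2.95), FOXA1 (-2.67) and SLC38A2 (-2.14). The tests and the means of both cell types are given above.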

How the results depend on the processing

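Main counts were 4258 genes for neonatal against E40, 1732 for the difference between alpha and beta changes and 3 for P22 against P8. For neonatal against E40, array weights gave 6418 calls, a fit of the 7 libraries alone 2159 and P22 alone 2461, and leaving out 1 library 2931 to 3740. For the difference, array weights gave 3119 calls, removal of hormone and mitochondrial genes 326, median-of-ratios scaling 463, quantile normalization 462, P8 alone 734 and P22 alone 440, and leaving out 1 library 803 to 1874. For P22 against P8, the stricter filter and the fit of only these groups gave 0 (602 and 1173 at an unadjusted p below 0.05 in limma), array weights, quantile normalization and removal of hormone and mitochondrial genes 5 each, a pseudocount of 0.1 gave 6, no filter 9, and leaving out 1 library 12 to 43. The cause was not tested.

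Single genes were recomputed 3059 times in all. The direction and the side of the threshold stayed in 2979 of them, 53 lost the call, 14 gained it and 13 changed sign, all among values not called. The alpha minus beta difference of RPL27 ranged from -0.22 to 0.020 with 1 library left out. The neonatal minus E40 difference of MAFA became -0.18 with P8 alone and 1.75 with P22 alone (limma, adjusted p = 0.061). In a fit of all alpha libraries MAFA was called as risen (0.79, adjusted p = 0.028). The neonatal minus E40 difference of FXYD2 became 0.45 with P22 alone, 0.13 with array weights and -0.63 to 0.20 with 1 library left out, and that of CPA1 -0.49 with P22 alone and -1.34 to 2.15 with 1 left out. KDR gave -0.43 to 0.046 with 1 left out, and IGFBP5 -0.18 with P8 alone, -0.0775 without hormone and mitochondrial genes and -0.095 with median-of-ratios scaling. In the fit of the 7 libraries alone ENO2, SREBF2, FDFT1, MT-ND5, CBX7, GCLC, GPX4, B2M, ITGAM, IGFBP3 and PRC1 were among those not called. With P8 alone HIST1H2AD, MT-ND4, MT-ND5 and GPX4, with P22 alone HIST1H2BH, FDFT1, GPX1, MYT1 and IGFBP3, with quantile normalization HSP90B1, and without hormone and mitochondrial genes HADHA and MYT1 were not called. No paired fit was run, because the labels do not say which libraries belong together. What neighbouring title numbers of alpha and beta libraries stand for was not tested. TPM keep no depth, so its limits are unknown.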

Other observations

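The remaining gene lists gave mixed counts. Of 24 endocrine progenitor genes 4 rose and 4 fell, against 3 and 7 with median-of-ratios scaling. Of 32 monogenic diabetes genes 8 rose and 5 fell (5 rises without E40 replicate 3). Of 21 genes of cell cycle inhibitors and cyclin D kinases 5 rose and 2 fell, against 2 and 6 with median-of-ratios scaling (3 rises without E40 replicates 1 or 3 or P8 replicate 2, and 2 rises without E40 replicate 2 or P8 replicate 1, and 1 rise without P22 replicate 1). Lysosome and autophagy genes gave 5 rises and 2 falls of 29, and genes of metal and oxidant defence 2 and 6 of 27.

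Among lists of other cell types, beta cell markers gave 8 rises and 2 falls of 24, immune cell markers 8 and 1 of 21 (5 rises without E40 replicate 1, and 4 rises without P22 replicate 1), endothelial markers 4 and 0 of 16, duct markers 3 and 0 of 18 (1 rise without E40 replicate 2 or P8 replicate 2, and 0 rises without E40 replicate 3 or P8 replicate 1), and delta cell markers 5 and 0 of 18 (2 rises without E40 replicate 1). Mesenchyme markers gave 2 rises and 5 falls of 25, with 3 falls without E40 replicates 1 or 3, P22 replicate 2 or P8 replicate 1, and 2 falls without E40 replicate 2, P22 replicate 1 or P8 replicate 2. Neural and Schwann cell markers gave 0 and 1 of 14, red blood cell markers 3 and 2 of 12, and liver markers 2 and 2 of 10. List counts of 2 or fewer, here and in the report, moved by up to 3 genes when 1 library was left out. These counts stand beside 16.8% and 7.1% of all genes, and the part of other cells in them was not tested.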
